A study of Mus musculus with 5 samples.

Results

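Epithelia defend their surfaces with small secreted peptides and proteins that damage microbes. Beta-defensins are short, cationic, cysteine-rich peptides that disrupt bacterial membranes, and several are induced in stratified epithelium by injury or by bacterial products. Lactoferrin (Ltf) binds iron and is secreted into milk, lysozyme 2 (Lyz2) cleaves the peptidoglycan of the bacterial wall, and peptidoglycan recognition protein 1 (Pglyrp1) binds that wall. Ltf, Lyz2 and Pglyrp1 are also made by neutrophils or macrophages. The 8 genes described here, of 24347 symbols in the tables, are the beta-defensin genes Defb14, Defb1, Defb3, Defb4 and Defb6 together with Ltf, Lyz2 and Pglyrp1. They were picked by name, with the contrast between the 2 cell populations already in view, so their own differences are given as a description, with no test. Each had 1 RefSeq transcript in the tables, and transcript lengths ran from 322 bases for Defb3 to 2742 for Ltf.

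Both populations were sorted from mammary precancerous lesions of MMTV-Wnt-1 transgenic mice, which express Wnt-1 in the mammary epithelium from a viral promoter, on a mixed FVB, SJL and C57BL/6 background. The first, labelled keratin 6a+ precancerous stem cells (Krt6a+), had 2 libraries, numbered 2 and 3. The second, labelled whey acidic protein+ cells (WAP+), had 3, numbered 1 to 3. Each library held pooled sorted cells, many to a sample by the labels, isolated with an antibody to TVA, the receptor of an avian virus. The labels give neither the age of the mice, nor how TVA came to mark each population, nor whether libraries came from separate animals, so spreads and p-values cover these samples only and may be technical. Levels are FPKM, that is fragments divided by transcript length and by the mapped fragments of the library. This allows genes to be compared per length, but less closely where a transcript is short, as given with Defb14. In such pools, fewer cells expressing a gene and less RNA per cell cannot be told apart.

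At FPKM 1 or more there were 8112 and 8580 genes in Krt6a+ libraries, against 8202 to 8900 in WAP+ libraries, and interval widths implied about 5120000 and 6550000 fragments in Krt6a+, against 4610000 to 6900000 in WAP+. The genes that name the populations followed their labels. Krt6a had FPKM 1380 and 1133 in Krt6a+, against 168, 50.0 and 120 in WAP+ libraries, so its transcript was in both, and Wap was listed at 0 in Krt6a+, against 50.1, 126 and 13.9 in WAP+ libraries. An exact 0 in these tables can be a failed estimate, since Eno1, Rpl10 and Rpl11, which nearly every cell uses, were listed at 0 in 5 libraries and Gapdh in 3. Values of 0 are therefore given as listed at 0, with no fold against a population at 0.

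The populations differed in which of the 8 genes had the highest FPKM. Defb14 and Ltf led in Krt6a+ libraries, Pglyrp1 and Ltf in WAP+ libraries, Defb1 was low and variable in both, and the other 4 genes were at or near 0. The place of Defb14 above Ltf, and the shares of both, depend on the length used for FPKM, as given with Defb14. The 8 genes summed to FPKM 1056 and 1337 in Krt6a+ libraries, against 317, 244 and 248 in WAP+ libraries. Defb14 made up 58.7% and 73.7% of that sum in Krt6a+ libraries and 0% in each WAP+ library. Pglyrp1 made up 1.27% and 0% in Krt6a+ libraries, against 60.7%, 79.5% and 64.1% in WAP+ libraries. Ltf kept an intermediate share, 39.8% and 23.9% in Krt6a+ libraries, against 37.0%, 18.3% and 32.3% in WAP+ libraries.

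**Figure D1:**
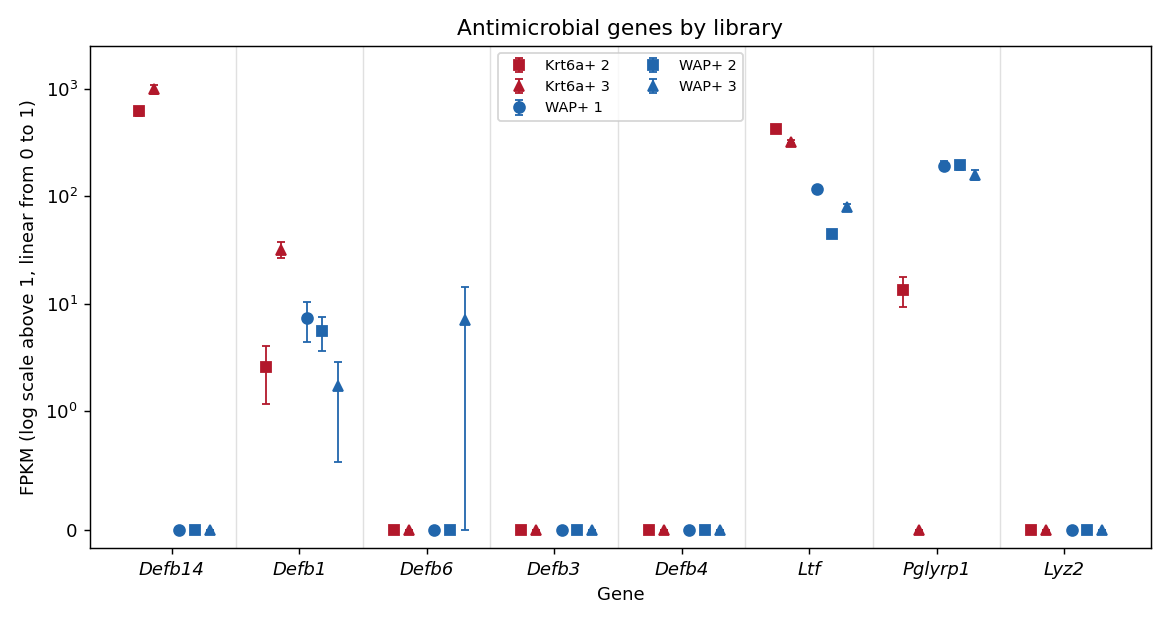
FPKM of each of the 8 antimicrobial genes in each library, with Krt6a+ libraries in red and WAP+ libraries in blue; marker shapes give the library number in the labels and bars the lower and upper 95% bounds that the authors deposited. Defb14 stands at 620 and 985 in Krt6a+ libraries and at 0 in WAP+ libraries, while Pglyrp1 stands at 13.4 and 0 in Krt6a+ libraries and between 159 and 194 in WAP+ libraries.

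RefSeq promoter windows on GRCm38.p6, the assembly also called mm10, were found for 5 of the 8 genes, Ltf, Pglyrp1, Lyz2, Defb3 and Defb6. Those of Ltf and Pglyrp1 are shown because these genes were detected in both populations and lay in opposite directions. Each window runs from 250 bases before to 50 after the transcript start, 5′ to 3′ on the plus strand, and capitals mark matches to any of 5 motifs searched on both strands: TATAAA for the TATA element, the common consensus of NF-kB under its name, TTNNGCAA for C/EBP, TTCNNNGAA for STAT, and for the factor AP-1 the letters TGANTCA.
Ltf, chr9:111019042-111019341: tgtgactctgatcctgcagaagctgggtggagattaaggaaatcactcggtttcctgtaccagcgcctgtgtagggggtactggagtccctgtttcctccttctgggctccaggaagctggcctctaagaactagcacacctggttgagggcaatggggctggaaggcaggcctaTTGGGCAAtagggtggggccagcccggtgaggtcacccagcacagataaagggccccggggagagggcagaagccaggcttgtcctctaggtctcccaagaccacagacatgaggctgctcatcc
Pglyrp1, chr7:18884440-18884739: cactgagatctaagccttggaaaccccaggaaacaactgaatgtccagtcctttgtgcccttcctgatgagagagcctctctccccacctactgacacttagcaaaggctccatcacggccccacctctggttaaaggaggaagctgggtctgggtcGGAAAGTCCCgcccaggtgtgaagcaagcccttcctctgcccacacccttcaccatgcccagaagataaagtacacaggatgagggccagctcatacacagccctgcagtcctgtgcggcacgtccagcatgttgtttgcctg
The Ltf window held 1 match, to the C/EBP letters from base -75, and the Pglyrp1 window 1 match, to the NF-kB consensus on the minus strand from base -93, with no overlap between motifs. Of 32851 such windows in the table, 10.8% held the C/EBP letters and 8.46% the NF-kB consensus. A match is only a description of these letters.

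Defb14, the mouse counterpart of human beta-defensin 3, which is made by keratinocytes, was the most abundant beta-defensin transcript in the Krt6a+ libraries. Its FPKM was 620 in library 2 (authors' 95% bounds 558 to 681) and 985 in library 3 (896 to 1075), and it was listed at 0 in WAP+ libraries 1, 2 and 3. The populations did not overlap, though transcripts of this length were often listed at 0, as given with Defb3 and Defb4. Among all genes above 0, Defb14 ranked 71st of 10417 and 40th of 10523 by FPKM in the 2 Krt6a+ libraries. The scaled mean in Krt6a+ libraries was 753 ± 170 FPKM (SD, n = 2). The Defb14 transcript NM_183026 is only 330 bases long and lies on the plus strand of chromosome 8 from 19194328 to 19195309 (mm10), so few fragments stand behind a high FPKM. Read as counting error, the authors' bounds corresponded to about 403 and 484 fragments in Krt6a+ libraries. Each fragment stood for FPKM 1.54 and 2.04 in these libraries, against 0.0595 and 0.0743 for Ltf. That gap is wider than the listed lengths of 330 and 2742 bases give. Per listed base, Ltf had more fragments than Defb14 in both Krt6a+ libraries, so the shares and ranks of Defb14 depend on the length used. None of the 105 windows of 100 bases, the read length, in its GENCODE transcript occurred in a transcript of another gene. The GENCODE transcript is 204 bases long, so part of the 330 bases was not checked.

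The remaining beta-defensins were low or listed at 0. Defb1, a defensin made constitutively by many epithelia, had FPKM 2.59 and 31.7 in Krt6a+ libraries, against 7.37, 5.58 and 1.72 in WAP+ libraries. Library 3 was the highest and library 2 lay within the WAP+ range, so the populations overlapped. The authors' bounds, which describe the estimate within 1 library, were 1.15 to 4.02 and 26.3 to 37.2 in Krt6a+ libraries. The log2 difference of Defb1, Krt6a+ minus WAP+, was 0.93 ± 0.96 (SE), and it was 2.43 without Krt6a+ library 2 and -0.56 without library 3. Defb1 lies on the plus strand of chromosome 8 from 21776555 to 21795185, apart from the other 4 defensins of the set, which lie between 19194328 and 19295339.

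Defb6 was listed at 0 in both Krt6a+ libraries and in WAP+ libraries 1 and 2, and at FPKM 7.09 in WAP+ library 3, where the authors' bounds, 0 to 14.2, corresponded to about 4 fragments. Defb3 and Defb4, which are inducible in epithelia, were listed at 0 in all 5 libraries, although Defb4 is the next member along the chromosome from Defb14, at 19198704 to 19201547. Over the whole family, 3 of 43 Defb symbols (Defb14, Defb1 and Defb6) and 0 of 18 Defa symbols were above 0 in any library. Alpha-defensins, the Defa genes, are products of Paneth cells of the gut in mice. Short transcripts were often at 0: 71.4% of 42 other symbols with 1 transcript of 300 to under 350 bases, and 69.2% of 338 with one of 350 to under 500 bases, were listed at 0 in all 5 libraries, so a 0 for Defb3, Defb4 or Defb6 was the common value at that length. Defb14, at 330 bases, is in the first of these classes, and its 0 in WAP+ libraries may also be a failed estimate. The share of 71.4% covers symbols at 0 in all 5 libraries, which Defb14 was not. How often a short gene detected in Krt6a+ libraries was listed at 0 in WAP+ libraries was not computed.

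Ltf and Defb1 were the members above 0 in every library, and Ltf was the higher of them throughout. It had FPKM 420 and 320 in Krt6a+ libraries, against 117, 44.5 and 80.0 in WAP+ libraries. Both Krt6a+ values were above all WAP+ values, and WAP+ library 2 was the lowest. Scaled means were 356 ± 103 FPKM (SD, n = 2) in Krt6a+ and 81.2 ± 28.5 FPKM (SD, n = 3) in WAP+ libraries, a ratio of 4.39, and the log2 difference was 2.16 ± 0.44 (SE). Ltf had the most fragments of the members, about 7069 and 4308 in Krt6a+, against 1576, 744 and 1110 in WAP+ libraries. Its transcript NM_008522 lies on the plus strand of chromosome 9 from 111019292 to 111042766. Ltf is a milk protein gene too, and its direction was opposite to that of the summed milk genes given with the marker lists.

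Pglyrp1 had the highest FPKM of the 8 genes in each WAP+ library, below several antimicrobial genes outside the set that are given further on. It had FPKM 13.4 in Krt6a+ library 2 and was listed at 0 in Krt6a+ library 3, against 192, 194 and 159 in WAP+ libraries. The WAP+ values were close to each other and far above both Krt6a+ values. Scaled means were 6.86 ± 9.70 FPKM (SD, n = 2) in Krt6a+ and 188 ± 22.7 FPKM (SD, n = 3) in WAP+ libraries, 27.4 times higher in WAP+, and the log2 difference was -5.62 ± 0.97 (SE). The log2 difference depended on the library listed at 0, at -7.56 without Krt6a+ library 2 and -3.66 without library 3. About 41 fragments stood behind the value in Krt6a+ library 2 and 439, 520 and 358 behind those in WAP+ libraries. The transcript NM_009402, on the plus strand of chromosome 7 from 18884690 to 18890438, shared none of its 595 windows of 100 bases with another gene in GENCODE.

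Lyz2, the lysozyme of macrophages and other myeloid cells, was listed at 0 in all 5 libraries, as was its neighbour Lyz1, the lysozyme of Paneth cells. The 2 genes share 24 of the 1217 windows of 100 bases in Lyz2, 1.97%. Lyz2 is 1057 bases long in the tables, a length class (1000 to under 2000 bases) in which 48.2% of 4879 symbols with 1 transcript were listed at 0 in all 5 libraries. Its locus is 117277541 to 117282272 of chromosome 10, minus strand.

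Read against all genes, 4 of the 8 members (Defb14, Defb1, Ltf and Pglyrp1) passed the filter of FPKM 1 or more in at least 2 libraries, among 9682 genes tested. Over these 9682 genes, 0.258% rose and 0.434% fell in Krt6a+ relative to WAP+ libraries (limma, Benjamini-Hochberg adjusted p under 0.05), 25 and 42 genes. These numbers fell to 2 and 4, 2 and 3, and 2 and 4 when WAP+ library 1, 2 or 3 was left out, and were 10 and 56 without Krt6a+ library 2 and 44 and 103 without Krt6a+ library 3. Populations did not overlap, with Krt6a+ higher, for 17.4% of the tested genes, a class that held Defb14 and Ltf, and with Krt6a+ lower for 17.4%, a class that held Pglyrp1. Since the members were chosen on this contrast, no test outcome is given for them and nothing is read from these classes.

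Ltf, Pglyrp1 and Lyz2 are myeloid genes too, so leukocyte markers were summed beside them. Of 13 neutrophil markers in the tables, 10 were listed at 0 in all libraries, among them Mpo, Elane, Ngp, Csf3r and Itgam, and the 13 summed to FPKM 0 and 0 in Krt6a+ libraries, against 0.18, 3.48 and 0.34 in WAP+ libraries. Of 15 macrophage and leukocyte markers, 10 were listed at 0 in all libraries, among them Ptprc, the CD45 antigen of all leukocytes, Adgre1 and Mrc1. These 15 summed to 15.4 and 21.0 in Krt6a+ libraries, against 13.5, 29.9 and 25.1 in WAP+ libraries, with Cd68, a lysosomal protein, at 6.49 and 17.8 in Krt6a+, against 9.08, 26.4 and 19.5 in WAP+ libraries. C1qb, a complement gene of macrophages, was at 8.00 and 2.43 in Krt6a+ libraries, where Defb14 and Ltf were higher. Each WAP+ library had a listed 0 for it, and its partners C1qa and C1qc had one in all libraries. Cd74 and Tyrobp went the other way, as Pglyrp1 did. Cd74 had a listed 0 in both Krt6a+ libraries, against 0.74, 1.40 and 4.81 in WAP+. Tyrobp had 0.90 and 0.82 in Krt6a+, against 2.68, 2.04 and 0.84 in WAP+. Once scaled, populations did not overlap for 1 marker with Krt6a+ higher and 2 with Krt6a+ lower. Adjusted p (limma) was 0.124 for C1qb, 0.311 for Cd74, 0.647 for Cd68 and 0.665 for Tyrobp. Of the 15, 4 were tested and 0 passed (limma). With an unadjusted p under 0.05 (limma), 1 was higher and 0 lower, against 742 and 915 of all 9682 tested genes. Zeros of these markers may be failed estimates too, and the part of leukocytes in the Ltf and Pglyrp1 values was not tested. The 14 squamous genes summed to 38463 and 15370 in Krt6a+ libraries, against 5062, 1960 and 1828 in WAP+ libraries, and the 13 milk genes to 191 and 813 in Krt6a+, against 10527, 5878 and 2617 in WAP+ libraries. Of 11 tested squamous genes 3 rose (Krt6a, Krt6b and Calml3), against 0.258% of all tested genes (limma, adjusted p under 0.05). Of 11 tested milk genes 4 fell (Wap, Spp1, Lalba and Cel), against 0.434%. Krt6a and Wap name the populations and Krt6b is a near copy of Krt6a, so their calls are not independent of the labels. Wap and Lalba were listed at 0 in Krt6a+ libraries, and Calml3 in WAP+ libraries. Each of these passed the filter through 1 population only, which fixed its direction. Of 9 tested luminal progenitor genes 1 rose (Tnfrsf11b) and 2 fell (Lcn2 and Cd14), against the same shares. Lcn2 is also among the other antimicrobial genes and Cd14 among the inducers given further on, so these are the same calls. The squamous and milk sums thus separated the populations, as Defb14 and Pglyrp1 did. Within a population the genes of a list did not all move together, so nothing is read from the sums there. From Krt6a+ library 2 to 3, Krt6b rose from 2171 to 2963 while Calml3 fell from 29.4 to 14.9. In WAP+ libraries 1, 2 and 3, Spp1 had FPKM 4698, 2477 and 1201, and Wap 50.1, 126 and 13.9. The part of squamous and milk cells in the Defb14 and Pglyrp1 values was not tested.

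**Figure D2:**
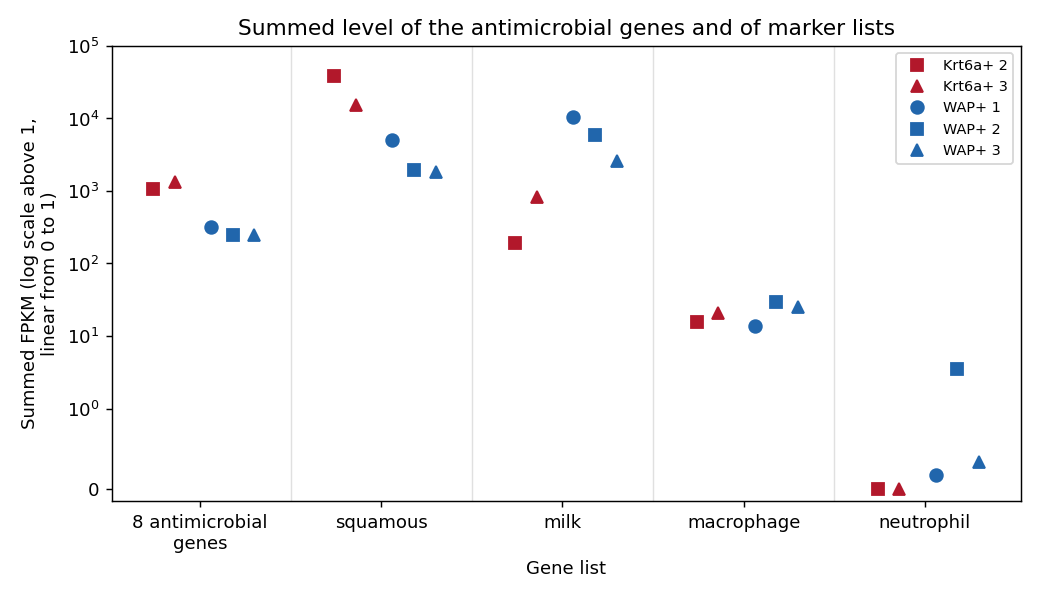
Summed FPKM of the 8 antimicrobial genes and of 4 marker lists in each library, on a log axis above 1, with Krt6a+ libraries in red, WAP+ libraries in blue and shapes for the library number in the labels. The neutrophil list sits at 0 in Krt6a+ libraries and at 3.48 or less in WAP+ libraries, while the squamous and milk lists separate the populations in opposite directions.

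The genes whose profiles over the 5 libraries lay closest to each member were taken by Euclidean distance between log2(scaled FPKM + 1) values centred per gene, over 9682 genes. Defb14 was closest to the keratin gene Krt6b (distance 1.19), a near copy of Krt6a whose shared reads may be split uncertainly between them. Krt6b had FPKM 2171 and 2963 in Krt6a+ libraries, against 2.07, 1.14 and 0.19 in WAP+ libraries. Next were S100g, a calcium-binding protein gene (2.79), and Krt80, a keratin gene (3.58). Both of those were higher in the Krt6a+ libraries and at FPKM 3.70 or less in the WAP+ libraries. Ltf lay closest to Pkp1, a desmosomal plakophilin (0.29), which had FPKM 56.1 and 44.2 in Krt6a+ libraries, against 19.5, 5.85 and 12.1 in WAP+ libraries, and then to Traf2, an adaptor of tumour necrosis factor receptors (0.29), and Rgs12 (0.33).

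Pglyrp1 lay closest to Car2, a carbonic anhydrase (1.25), which had FPKM 31.8 and 1.31 in Krt6a+ libraries, against 245, 153 and 221 in WAP+ libraries. Chil1 (1.98) and Toporsos (1.99) followed, and like Pglyrp1 both were listed at 0 in Krt6a+ library 3. Defb1 lay closest to Rbmx2 (0.46), Zfp119a (0.52) and Ptdss1, a phosphatidylserine synthase (0.53), each highest in Krt6a+ library 3. The 4 members had 4 separate sets of nearest genes. This follows from their unlike differences between the populations, on which the distance depends, so nothing is read from it.

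Several other antimicrobial genes of epithelia and milk had a higher FPKM than Pglyrp1 in WAP+ libraries, among them S100a8, Lcn2 and Wfdc18. Of 40 listed genes 38 were in the tables, 13 of them listed at 0 in all libraries, and 19 were tested. Of these 19, 4 fell and 0 rose in Krt6a+ libraries (limma, adjusted p under 0.05), against 0.434% and 0.258% of all genes. With an unadjusted p under 0.05 (limma), 9 were lower and 2 higher, against 915 and 742 of all 9682 tested genes. Over all 19, 13 differences were negative and 6 positive. The median log2 difference was -2.48, against -0.01 over all tested genes, and -1.57 over the 15 genes above 0 in both populations. Those that fell were S100a8, a subunit of the metal-binding protein calprotectin, Lcn2, which sequesters bacterial iron carriers, the chitinase-like gene Chil1, and Wfdc18, a secreted protein with a whey acidic protein domain. Several of these genes were known from earlier results of these data when the list was made, so their direction is not independent evidence.

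S100a8 had FPKM 4.82 and 2.40 in Krt6a+ libraries, against 2226, 4442 and 4912 in WAP+ libraries (log2 -9.78 ± 0.54 SE; limma, adjusted p = 0.000342). Lcn2 had 757 and 462 in Krt6a+, against 13525, 9151 and 8197 in WAP+ libraries (log2 -4.20 ± 0.39 SE; limma, adjusted p = 0.00942). Wfdc18 had 1121 and 2911 in Krt6a+, against 12303, 17945 and 15406 in WAP+ libraries (log2 -3.18 ± 0.48 SE; limma, adjusted p = 0.0448). Unlike Defb14 and Pglyrp1, Lcn2 and Wfdc18 were thus abundant in both populations. Chil1 was at 5.14 and 0 in Krt6a+, against 373, 201 and 396 in WAP+ libraries (log2 -7.01 ± 0.75 SE; limma, adjusted p = 0.0143). S100a8 passed without each library in turn. Without WAP+ library 1, 2 or 3 the list held 1, 1 and 2 lower genes, and Lcn2, Chil1 and Wfdc18 did not pass (limma, adjusted p of 0.0901, 0.109 and 0.102 for Lcn2, 0.131, 0.141 and 0.134 for Chil1, and 0.135, 0.202 and 0.176 for Wfdc18). Wfdc18 also did not pass without Krt6a+ library 2 (limma, adjusted p = 0.0574).

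The 4 genes of the list with the next largest statistics did not pass. Saa1, an acute phase protein gene, was listed at 0 in Krt6a+ libraries and had FPKM 221, 157 and 11.1 in WAP+ libraries (limma, adjusted p = 0.0522, and 0.0156 without WAP+ library 3, where it passed), and Saa3 had 0 and 0.78 in Krt6a+, against 13.8, 18.2 and 86.6 in WAP+ libraries (limma, adjusted p = 0.0646). The mucin gene Muc1 had 0 and 0.22 in Krt6a+, against 27.9, 6.81 and 14.5 in WAP+ libraries (limma, adjusted p = 0.0548). S100a9, the calprotectin partner of S100a8, was listed at 0 in Krt6a+ libraries and had only 10.6, 9.81 and 116 in WAP+ libraries (limma, adjusted p = 0.0982), far below S100a8 per length.

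Of the 19 tested genes, 3 had populations that did not overlap with Krt6a+ higher and 8 with Krt6a+ lower, against 17.4% of all tested genes in each direction. The 3 are named after their values were seen. Wfdc12 had FPKM 275 and 35.9 in Krt6a+ libraries, against 12.4, 0 and 0 in WAP+ libraries (limma, log2 5.40 ± 1.29 SE, adjusted p = 0.0982). Pglyrp3, a relative of Pglyrp1 made in skin, had 54.5 and 10.4 in Krt6a+, against 8.86, 0 and 0 in WAP+ libraries (limma, log2 3.54 ± 1.17 SE, adjusted p = 0.180). The protease inhibitor gene Slpi had 3091 and 9654 in Krt6a+, against 3104, 2365 and 2115 in WAP+ libraries, which do not overlap once scaled (limma, log2 1.01 ± 0.46 SE, adjusted p = 0.318). Camp, the cathelicidin gene, was listed at 0 in all 5 libraries.

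**Figure D3:**
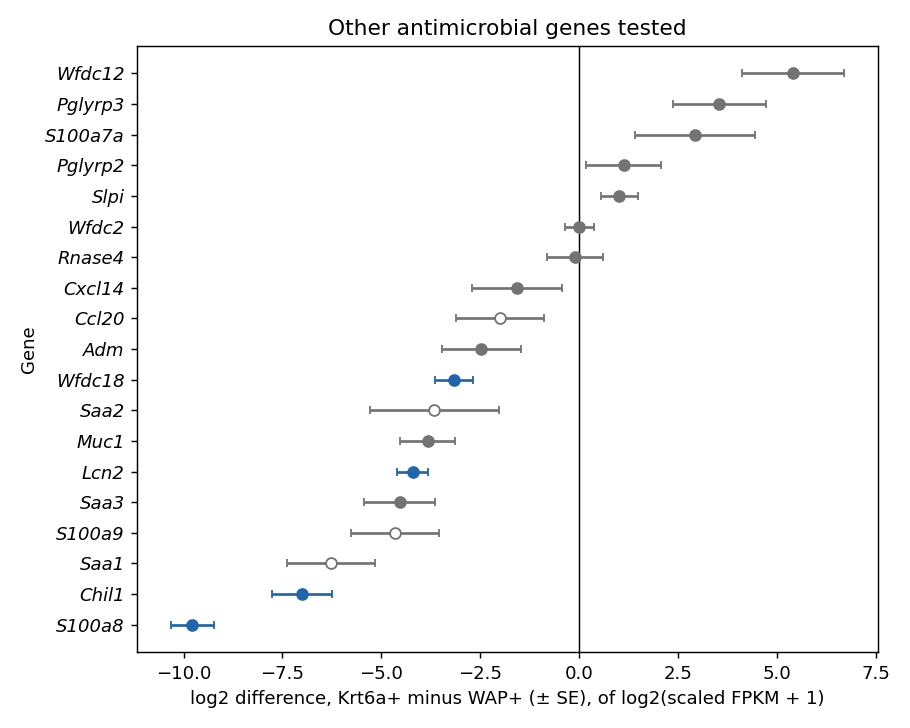
Log2 difference, Krt6a+ minus WAP+, with its standard error for the 19 tested genes of the list of other antimicrobial genes; blue marks the 4 genes past the threshold, and open symbols genes listed at 0 in a whole population, whose size depends on the pseudocount. Differences run from -9.78 for S100a8 to 5.40 for Wfdc12.

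Genes that induce antimicrobial peptides, the interleukin and Toll-like receptor pathways with their transcription factors, were next. Of 54 listed genes 49 were in the tables and 43 were tested, of which 1 rose and 1 fell (limma, adjusted p under 0.05), against 0.258% and 0.434% of all genes. Differences were positive for 32 and negative for 11, with a median log2 difference of 0.35, against -0.01 over all tested genes. Populations did not overlap for 13 with Krt6a+ higher and for 6 with Krt6a+ lower, against 17.4% of all genes in each direction. Myd88, the adaptor of Toll-like and interleukin 1 receptors, rose, with FPKM 53.7 and 96.6 in Krt6a+ libraries, against 10.1, 7.78 and 9.55 in WAP+ libraries (log2 2.74 ± 0.46 SE; limma, adjusted p = 0.0495). Cd14, a co-receptor for lipopolysaccharide, fell, with 47.1 and 42.2 in Krt6a+, against 306, 392 and 361 in WAP+ libraries (log2 -3.07 ± 0.38 SE; limma, adjusted p = 0.0275). Myd88 did not pass when any 1 library was left out, nor Cd14 when any 1 WAP+ library was left out (limma, adjusted p of 0.0573 to 0.202 and 0.0901 to 0.170), and the other 41 genes did not pass.

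Among those 41, Cebpd, a transcription factor of the acute phase response, had FPKM 61.0 and 51.4 in Krt6a+ libraries, against 225, 152 and 113 in WAP+ libraries (limma, adjusted p = 0.0982). Il1rn, the interleukin 1 receptor antagonist, had 34.3 and 32.8 in Krt6a+, against 6.25, 11.8 and 8.82 in WAP+ libraries (limma, adjusted p = 0.159). Tnf had 26.6 and 84.0 in Krt6a+, against 22.7, 3.63 and 8.28 in WAP+ libraries, and Il10rb, a receptor chain for interleukin 22 among others, 1.69 and 2.98 against 12.7, 7.90 and 7.93 (limma, adjusted p = 0.187 and 0.186). Il22ra1, the specific chain of the interleukin 22 receptor, was listed at 0 in all libraries.

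Of 10 listed receptors that antimicrobial proteins act on, Ccr2, Trem1, Itln1 and Mc1r were listed at 0 in all libraries, which may be failed estimates, and Tlr2 and Tlr4 were tested. Tlr2 had FPKM 6.20 and 25.6 in Krt6a+ libraries, against 3.64, 0.43 and 4.33 in WAP+ libraries, and Tlr4 6.75 and 0.55 against 2.01, 1.06 and 2.47, and neither passed (limma, adjusted p = 0.289 and 0.912). Ccr6, a chemokine receptor that binds beta-defensins, was above 0 in WAP+ library 3 alone, at 2.64, and Lrp1, a receptor that binds lactoferrin, reached 6.06 in Krt6a+ library 3 and 0.75 or less in the other libraries.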

How the data were processed

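RNA-seq libraries of amplified cDNA (SMART-Seq v4, then Nextera, per the labels' protocols) were analysed from 2 Krt6a+ and 3 WAP+ samples. TopHat and Cufflinks were used with mm10, per the submitters' processing notes, with versions not given in the sources used here. Per the file headers, each deposited table gives FPKM with lower and upper bounds for 34535 transcripts, and a coverage signal that was not used. The deposited FPKM was normalized by the authors for length and mapped fragments. Counts were not used: fragment numbers were estimated from the bounds, read as 2 SD of counting error, and cover counting error only. The kit does not mark the strand, and no GENCODE M21 gene overlapped a member. Of 13568 transcripts whose end equalled that in GENCODE, the start was equal after adding 1 in 7562 and as deposited in 363, so starts are printed with 1 added.

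Transcripts of 1 symbol were summed, scaled by the median ratio over 5334 genes (factors 0.980 and 1.13 in Krt6a+, 1.14, 0.909 and 0.873 in WAP+ libraries), filtered at FPKM 1 or more in at least 2 libraries, and analysed as log2(scaled FPKM + 1), on which changes of low genes come out too small. The comparison used limma 3.58.1 (R 4.3.3, eBayes with trend, two-sided, Benjamini-Hochberg adjusted over 9682 genes, threshold 0.05), and the procedure was tested on simulated data. An SD is over libraries of scaled FPKM, and an SE is moderated. Genes named were the members, the called genes of each list with up to 4 more by moderated statistic, and 3 nearest profiles per member. Outside this rule, Wfdc12, Pglyrp3, Slpi, Camp, Il22ra1, Ccr6, Lrp1, Lyz1 and the markers named at 0 were picked after their values were seen, and the uncalled squamous, milk and luminal progenitor genes are not named. Members and lists were chosen with earlier results of these data known. Alternatives covered the pseudocount, filter, scaling, transcript choice, trend, replicate block and leaving out each library.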

Additional observations from a re-analysis of the deposited data

How the results depend on the processing

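Over 14 alternatives each, the log2 difference of Ltf ran from 1.80 to 2.50 and that of Pglyrp1 from -7.56 to -3.66, with no change of sign. Pglyrp1 was at -7.32 when the pseudocount was 0.1 and -4.31 when it was 5. Defb1 ran from -0.56 to 2.43 when single libraries were left out, and its sign reversed without Krt6a+ library 3 (-0.56), the library with its highest value. The mean of Defb14 in Krt6a+ libraries was 1098 FPKM with quantile normalization and 725 to 772 without 1 WAP+ library, and it was listed at 0 in WAP+ libraries throughout. Without a Krt6a+ library Defb14 was above 0 in 1 library only and did not pass the filter, so no value was computed.

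Counts of called genes moved more. For all genes, higher and lower, they were 6 and 20 with a pseudocount of 0.1, 2 and 3 with no filter, 71 and 92 with a filter of FPKM 5 and 7 and 9 with no mean-variance trend. The higher genes were 41 with a pseudocount of 5 and 39 with quantile normalization, and the lower genes 27 with no scaling. Leaving out single libraries gave 2 to 44 higher and 3 to 103 lower. With 1 Krt6a+ library left, that library was assumed to vary like the others. Among the other antimicrobial genes, the lower ones numbered 2 with a pseudocount of 0.1, 1 with no filter, 7 with the stricter filter, 2 with no trend and 1 to 4 without single libraries, and 0 were higher in these settings. S100a8 passed in 14 of 14 alternatives (limma, adjusted p from 0.00014 to 0.0117), Lcn2, Chil1 and Cd14 in 9 each, Wfdc18 in 6 and Myd88 in 4. The uncalled Tlr4 difference was -0.93, a reversal, without Krt6a+ library 2 and 1.47 without library 3. The causes were not tested.

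With a replicate block on the numbers in the labels there were 15 higher and 19 lower genes, and 1 higher gene among the other antimicrobial genes. The labels do not say that a number marks a shared source. Same-numbered libraries deviated with correlations of 0.05 for number 2 and 0.00 for number 3, and Krt6a+ library 3 with WAP+ library 1 had 0.05. Deviations of the 2 Krt6a+ libraries from their mean mirror each other, so these correlations cannot show whether numbers mark a shared source. Few fragments stand behind the low members: about 4 for Defb6 and 9 to 137 per library for Defb1.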
